A study of Homo sapiens with 5 samples.

Results

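EWSR1 and FLI1, the 2 genes fused in Ewing sarcoma, and 5 of their relatives, TAF15, ERG, ETV6, ETS1 and ETV4, were followed in a human cell line of Ewing sarcoma, MHH-ES-1. All probe sets annotated to these 7 genes alone were taken, which gave 28 of the 54613 probe sets on the array. No probe set listed a member together with another gene. The cells had received 50 nM of a synthetic microRNA mimic with a lipid reagent, and RNA was taken after 48 h. The groups were the miR-483-5p mimic with 2 arrays, the miR-483-3p mimic with 1 array and a scrambled control mimic with 2 arrays, all in the same line and with no untransfected cells. The labels describe the second array of a pair as a repeat and do not name a separate culture, so p-values measure the spread between these arrays alone, which may be technical.

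EWSR1 and TAF15 belong to the FET family of RNA-binding proteins with a low-complexity activation domain at their N-terminus. FLI1, ERG, ETV6, ETS1 and ETV4 belong to the ETS family, transcription factors that bind DNA with a GGAA core. In Ewing sarcoma a translocation joins the 5' part of EWSR1 to the 3' part of FLI1, or more rarely of ERG or ETV4, and the chimera is transcribed from the EWSR1 promoter and binds at repeats of GGAA. The transcript thus starts with EWSR1 exons and ends with the FLI1 exons for the DNA-binding domain and the FLI1 3' end. Arrays of this type are built on the 3' end of a transcript. A probe set at the FLI1 3' end reads the fusion and intact FLI1 together, and a probe set at the EWSR1 3' end reads intact EWSR1 and not the fusion. A probe set in the 5' part of EWSR1 would read both. The annotation used here gives a source entry for a probe set and no probe positions, so the exons each one matches are not known. Of the FLI1 probe sets, 204236_at has a RefSeq transcript of the gene as its source entry. Probe sets 234614_at and 234520_at of FLI1 share 1 source entry, as do 210011_s_at and 210012_s_at of EWSR1.

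The promoter of EWSR1 is shown because it drives the fusion transcript, and that of ETV6 because this gene had the largest single difference among the members. Both are RefSeq windows of GRCh38.p14, from 250 bases before to 50 after the annotated start, on the plus strand, at chr22:29268018-29268317 for EWSR1 and chr12:11649424-11649723 for ETV6, with capitals for GGAA read on either strand (GGAA or TTCC).
EWSR1: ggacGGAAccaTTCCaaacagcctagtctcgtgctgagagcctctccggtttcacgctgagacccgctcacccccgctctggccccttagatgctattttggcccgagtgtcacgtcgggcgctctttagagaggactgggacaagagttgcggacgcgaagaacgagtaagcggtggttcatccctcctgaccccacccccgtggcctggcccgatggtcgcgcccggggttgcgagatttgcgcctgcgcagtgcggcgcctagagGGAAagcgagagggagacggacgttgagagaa
ETV6: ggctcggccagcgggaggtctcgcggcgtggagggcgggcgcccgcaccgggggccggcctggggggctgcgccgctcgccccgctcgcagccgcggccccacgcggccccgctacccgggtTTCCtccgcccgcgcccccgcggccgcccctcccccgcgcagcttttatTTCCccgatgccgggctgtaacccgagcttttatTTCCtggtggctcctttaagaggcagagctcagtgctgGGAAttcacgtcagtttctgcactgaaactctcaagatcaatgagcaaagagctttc
EWSR1 has 3 such cores and ETV6 has 4. The median over the 35116 windows of the same length is 3, 95.5% of them hold at least 1 and 46% at least 4. The tandem GGAAGGAA on either strand stands in 3.67% of all windows and in neither of these. The 4 ERG windows hold 1, 6, 2 and 2 cores and no tandem.

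The line's identity was checked on markers first. All 7 Ewing sarcoma markers (CD99, NKX2-2, STEAP1, LIPI, NPY1R, BCL11B and PAX7) were bright on every array, at 825.2 to 5092.5, with summed signals of 15894.5 and 13968.1 for miR-483-5p, 15000.7 for miR-483-3p, and 16267 and 16894.2 for the control. FLI1 and ERG are also known as genes of endothelium and blood cells. Of the blood markers, PTPRC, CD3E and SPI1 read at most 32.6 on any array. Of the endothelial markers, CDH5 and VWF read at most 32.4, and PECAM1 read 132.6 to 169.5 in its brightest probe set. Epithelial markers read at most 35.4 and skeletal muscle markers at most 46.9. Arrays had median signals of 39.2 to 44.9 and correlated at r = 0.97 to 0.98 across the 32768 probe sets tested, a correlation across probe sets, which are not replicates. The ratio of 3' to 5' GAPDH signal, a sign of RNA integrity, was 1.09 and 1.1 with miR-483-5p, 1.06 with miR-483-3p, and 1.02 and 0.996 in scrambled control arrays.

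Of the 28 member probe sets, 18 had a mean above the filter on dim probe sets, a signal of 27.2, and were tested. EWSR1 kept 3 of 4, FLI1 4 of 6, TAF15 2 of 4, ERG 1 of 4, ETV6 5 of 5, ETS1 3 of 3 and ETV4 0 of 2. Signals are in the deposited linear units. Differences and their standard errors (SE) were taken on log2(signal + 32), where changes of dim probe sets come out smaller than they are. Signals of different probe sets are not comparable as amounts of RNA.

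EWSR1 was the member whose bright probe sets were higher with both mimics. Probe set 209214_s_at read 1562.8 and 1415.4 with miR-483-5p, 1380.2 with miR-483-3p, and 1268.1 and 1082.5 in scrambled control arrays. Probe set 210011_s_at read 631.4 and 553.8 with miR-483-5p, 530.9 with miR-483-3p, and 357.8 and 438.4 in scrambled control arrays. In each, the 3 arrays with a miR-483 mimic lay above both control arrays, and the miR-483-3p array lay below both miR-483-5p arrays. Both miR-483-5p arrays were above both control arrays in 18.5% of all probe sets tested. In 209214_s_at the means were 1489 ± 104 for miR-483-5p and 1175 ± 131 for the scrambled mimic, and in 210011_s_at they were 592.6 ± 54.9 for miR-483-5p and 398.1 ± 57.0 for the scrambled mimic (SD, n = 2 each).

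On the log2 scale miR-483-5p exceeded the control by 0.34 (SE 0.16, 95% interval -0.06 to 0.73) in 209214_s_at and 0.54 (SE 0.17, 0.13 to 0.95) in 210011_s_at. Neither passed limma's test after Benjamini-Hochberg adjustment over all 32768 probe sets, with adjusted p = 0.645 and 0.547. With miR-483-3p the differences from the same controls were 0.23 (SE 0.20) and 0.39 (SE 0.21), with adjusted p = 0.973 and 0.944. The differences between miR-483-5p and miR-483-3p were 0.11 (95% interval -0.38 to 0.59) and 0.15 (-0.36 to 0.65). Leaving out any of the paired arrays kept the miR-483-5p differences between 0.22 and 0.45 and between 0.41 and 0.68. RNA was taken from the culture as a whole, so the number of cells that express a gene and the amount of its RNA per cell cannot be told apart. The GAPDH ratio separated the same arrays, and its part in these values was not tested. The 3' to 5' ratio of ACTB was 1.18 and 1.07 with miR-483-5p, 1.09 with miR-483-3p, and 1.07 and 1.04 in scrambled control arrays. At these digits the lower miR-483-5p array tied with the higher control, and the part of this ratio was not tested either.

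The other EWSR1 probe sets did not follow this pattern. Probe set 229966_at read 67.2 and 110.5 with miR-483-5p, 65.7 with miR-483-3p, and 85.4 and 77.5 in scrambled control arrays. The miR-483-5p arrays lay on either side of the controls, and the difference of 0.07 was -0.19 without the second miR-483-5p array. Probe set 210012_s_at, from the same source entry as 210011_s_at, lay under the filter, at 18 and 40.5, 18.5, and 29 and 3.5 in the same order of groups.

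**Figure D1:**
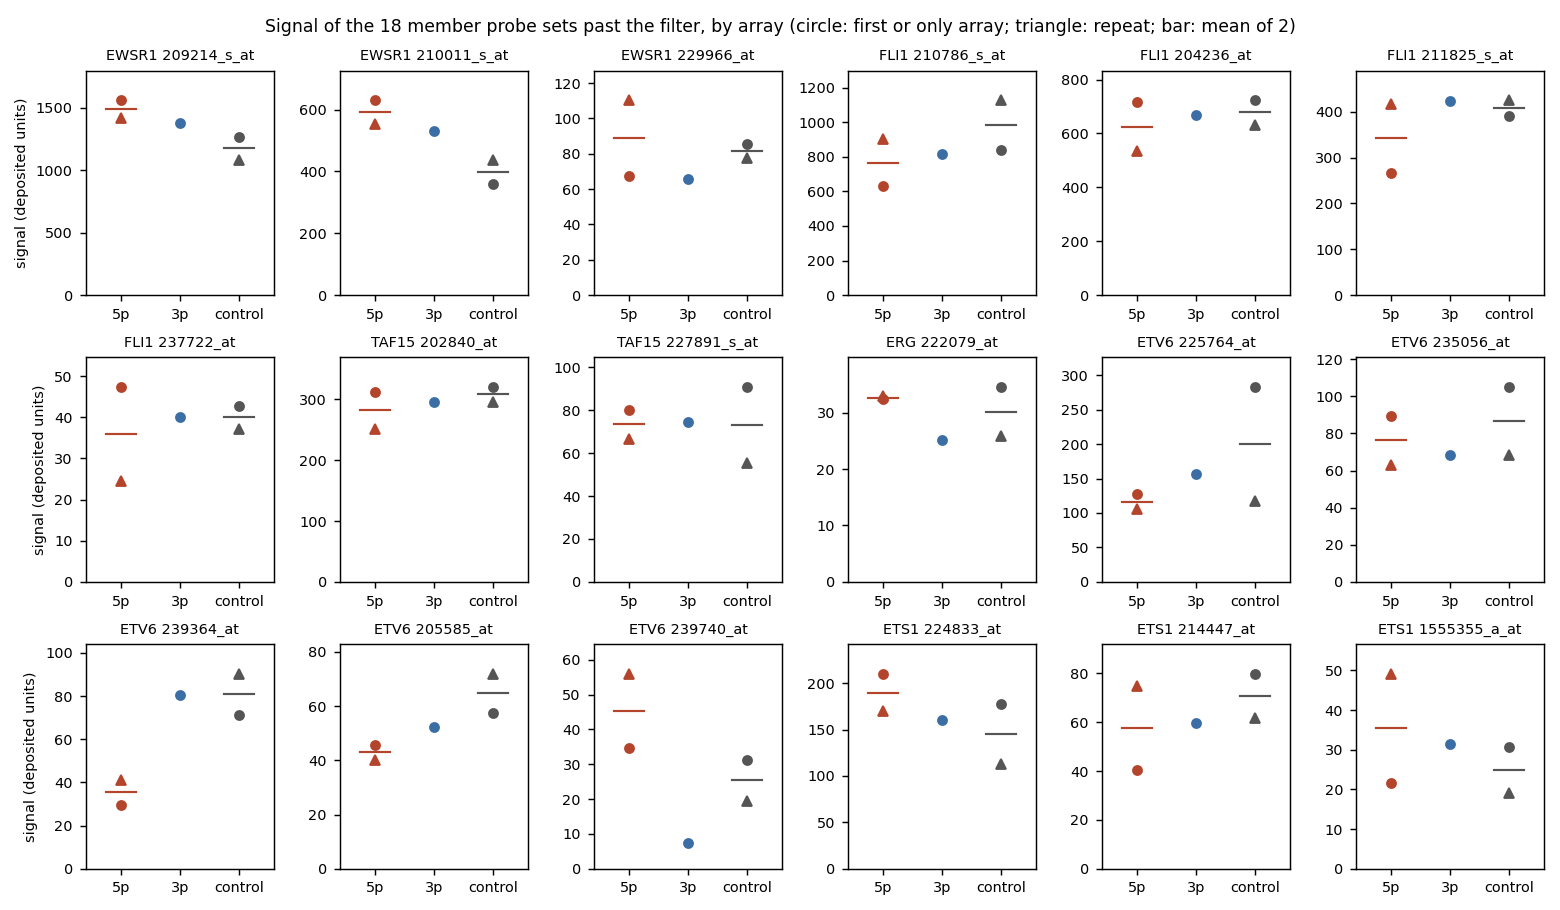
Signal of each of the 18 tested member probe sets (vertical axes, deposited linear units, each starting at 0) on every array, by group. Circles are the first or only array of a group, triangles the repeat, and bars the mean of 2 arrays. In EWSR1 209214_s_at and 210011_s_at the miR-483-5p and miR-483-3p arrays lie above both controls, whereas all 4 FLI1 panels show overlap of miR-483-5p and control.

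FLI1, which supplies the DNA-binding end of the fusion, had lower means with miR-483-5p in all 4 tested probe sets, and in each of them the miR-483-5p and control arrays overlapped. Probe set 204236_at read 715.9 and 534.8 with miR-483-5p, 668.9 with miR-483-3p, and 724.5 and 631.2 in scrambled control arrays. Probe set 210786_s_at read 629.1 and 902.9 with miR-483-5p, 815.1 with miR-483-3p, and 840.7 and 1130.4 in scrambled control arrays. Probe set 211825_s_at read 266.9 and 416.3 with miR-483-5p, 423 with miR-483-3p, and 391.5 and 425.7 in scrambled control arrays. In 211825_s_at the first miR-483-5p array was low and the other 4 arrays lay within 391.5 to 425.7. The dim 237722_at read 47.4 and 24.5 with miR-483-5p, 40.1 with miR-483-3p, and 42.8 and 37.2 in scrambled control arrays.

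On the log2 scale miR-483-5p minus control came to -0.12 (SE 0.19) in 204236_at, -0.36 (SE 0.23) in 210786_s_at, -0.27 (SE 0.22) in 211825_s_at and -0.10 (SE 0.20) in 237722_at. None passed limma's test, with adjusted p from 0.713 for 210786_s_at to 0.912 for 237722_at. The 95% intervals ran from -0.91 to 0.20 for 210786_s_at and from -0.58 to 0.34 for 204236_at, intervals that cover both lower and higher FLI1 signal with the mimic. Without the first miR-483-5p array 211825_s_at was at 0.03, and without the second 204236_at was at 0.08 and 237722_at at 0.14. Probe set 210786_s_at ran from -0.61 to -0.11 over the same omissions. With miR-483-3p the 4 differences were -0.02, -0.25, 0.05 and 0.0031 in the same order. The FLI1 probe sets under the filter, 234614_at and 234520_at, stayed between 12.3 and 28.7 on all arrays.

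**Figure D2:**
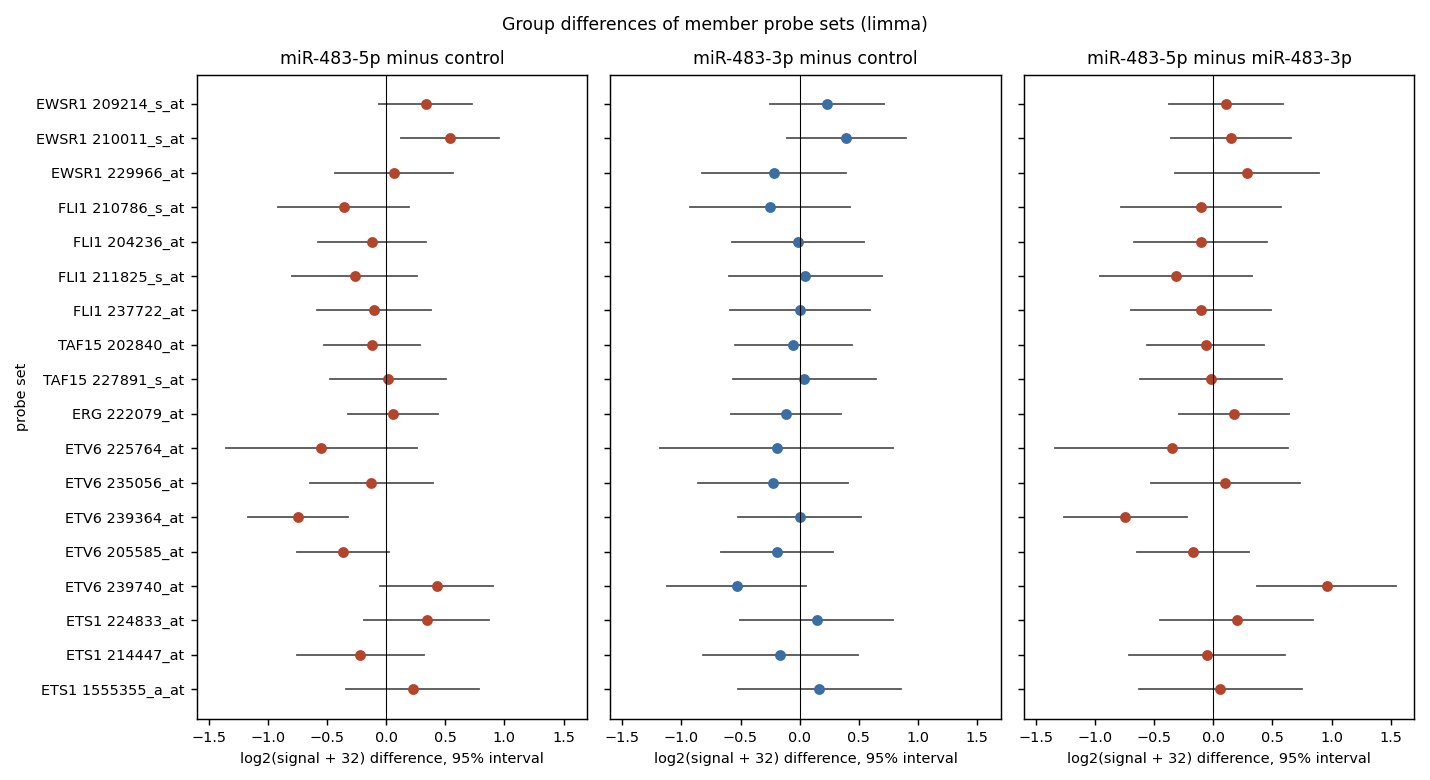
Difference in log2(signal + 32) for the 18 tested member probe sets in each of the 3 comparisons, named at the top of each panel. Points are limma estimates and lines 95% intervals. Intervals cross 0 except for EWSR1 210011_s_at (0.54) and ETV6 239364_at (-0.74) with miR-483-5p against the control, and ETV6 239740_at (0.96) and 239364_at (-0.74) with miR-483-5p against miR-483-3p. The mean of 239740_at passed the filter only through its miR-483-5p arrays.

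EWSR1 and FLI1 could be set against each other within each array, where any scaling of that array cancels. The ratio of EWSR1 209214_s_at to FLI1 204236_at was 2.183 and 2.647 with miR-483-5p, 2.063 with miR-483-3p, and 1.75 and 1.715 in scrambled control arrays. The ratio of 210011_s_at to 210786_s_at was 1.004 and 0.6134 with miR-483-5p, 0.6513 with miR-483-3p, and 0.4256 and 0.3878 in scrambled control arrays. In both ratios every array with a miR-483 mimic exceeded both controls. The same held for miR-483-5p in all 8 ratios of these EWSR1 probe sets to the 4 FLI1 probe sets, and in all 8 the miR-483-3p array was also above both controls. The miR-483-5p ratios were 1.387 to 1.931 times those of the control on average. The 8 ratios share their EWSR1 and FLI1 values, so they are not separate evidence. In these EWSR1 probe sets alone every array with a miR-483 mimic already lay above both controls, and the ratios largely repeat that separation. For 209214_s_at over 211825_s_at the miR-483-3p array was at 3.263 and the higher control at 3.239. Over each of the 4 FLI1 probe sets, 11.8% to 32.4% of all other tested probe sets gave ratios with both miR-483-5p arrays above both controls. These shares cover all probe sets, whether or not they separated on their own. Every array with a miR-483 mimic lay above both controls in 7.56% to 24% of these ratios. With EWSR1 229966_at 2 of the 4 ratios overlapped, and the miR-483-3p array lay below both controls in 3 of them and between the controls in the fourth. The ratios were not tested, and a ratio cannot tell which of the EWSR1 and FLI1 signals differs.

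**Figure D3:**
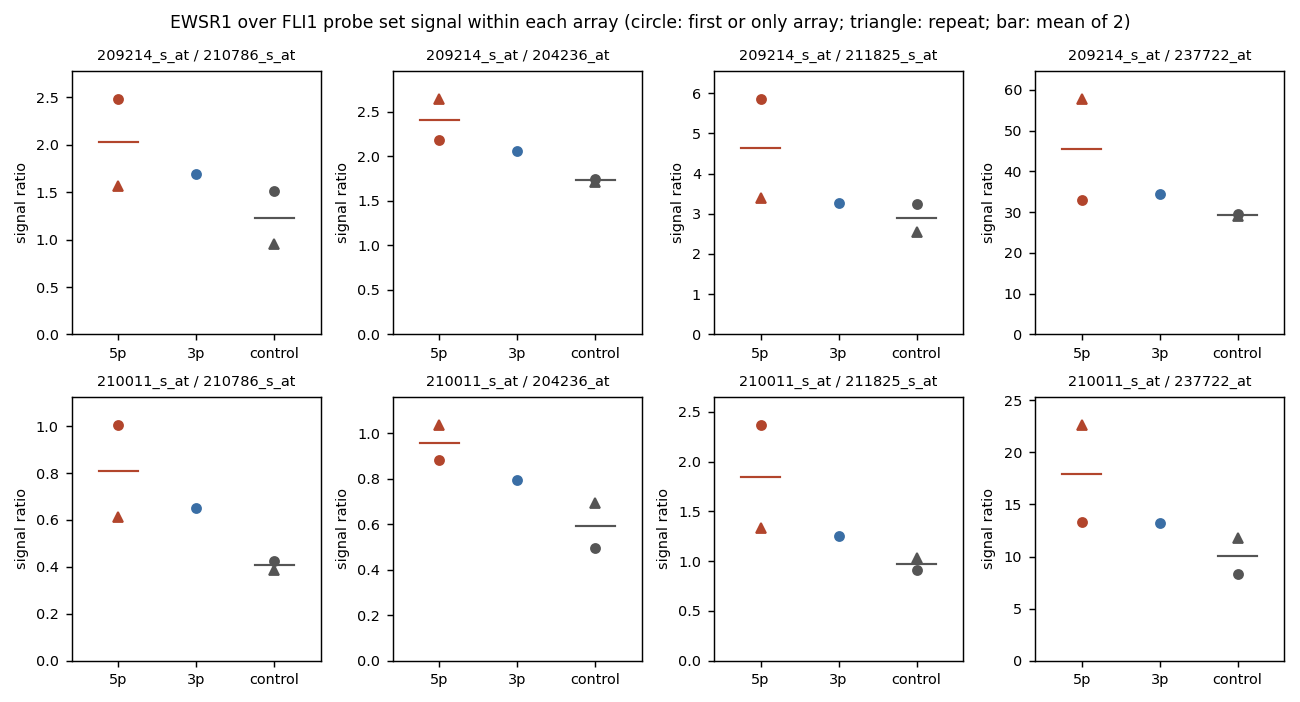
Signal ratio of an EWSR1 to a FLI1 probe set within each array (vertical axes, linear, from 0), for 2 EWSR1 and 4 FLI1 probe sets, by group. Circles are the first or only array, triangles the repeat, and bars the mean of 2. In all 8 panels both miR-483-5p arrays and the miR-483-3p array lie above both control arrays, as they do in these EWSR1 probe sets alone.

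FLI1 probe sets differed in how the 2 arrays of a pair compared. The repeat array was higher than the first in 210786_s_at and 211825_s_at, by 0.50 and 0.58 on the log2 scale with miR-483-5p and by 0.41 and 0.11 for the scrambled mimic. It was lower in 204236_at and 237722_at, with differences of -0.40 and -0.49 for miR-483-5p and of -0.19 and -0.11 for the scrambled mimic. Thus 2 probe sets of this gene went up and 2 went down from first to repeat in both pairs. For 210786_s_at, 204236_at and 237722_at this step was larger in absolute size, in both pairs, than the difference between miR-483-5p and control. For 211825_s_at it was larger in the miR-483-5p pair alone. Over all 18 tested members the step had the same sign in both pairs in 11, or 61.1%, against 56.7% of all probe sets tested.

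**Figure D4:**
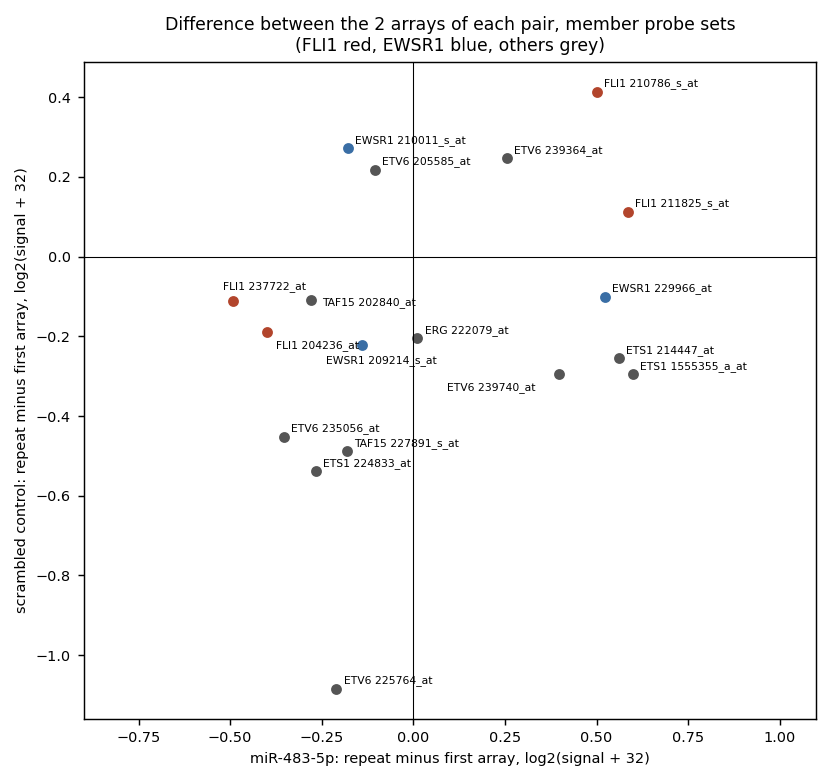
Repeat minus first array, in log2(signal + 32), for the miR-483-5p pair (horizontal axis) and the scrambled control pair (vertical axis), with 1 point for each of the 18 tested member probe sets. FLI1 210786_s_at and 211825_s_at lie above 0 on both axes and FLI1 204236_at and 237722_at below 0 on both; ETV6 225764_at is lowest on the vertical axis, at -1.08.

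TAF15, a FET protein that can replace EWSR1 in fusions of other sarcomas, had overlapping groups. Probe set 202840_at read 312.1 and 251.5 with miR-483-5p, 294.9 with miR-483-3p, and 320.6 and 295.2 in scrambled control arrays. Its difference with miR-483-5p was -0.12 (SE 0.17, 95% interval -0.53 to 0.28), and it turned to 0.02 without the second miR-483-5p array. Probe set 227891_s_at read 80 and 66.7, 74.6, and 90.9 and 55.6 for miR-483-5p, miR-483-3p and control, a difference of 0.02 (SE 0.21). The remaining probe sets of TAF15, 227884_at and 234168_at, read at most 34.8.

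ETV6, an ETS repressor with a pointed domain that is itself a fusion partner in leukaemias, had the largest differences among the members, and its probe sets did not go one way. With miR-483-5p 4 of its 5 probe sets had lower means than the control and 1 had a higher mean. Probe set 239364_at read 29.4 and 41.3 with miR-483-5p, 80.4 with miR-483-3p, and 71.2 and 90.4 in scrambled control arrays. The miR-483-5p arrays lay below the other 3, and the difference was -0.74 (SE 0.18, 95% interval -1.17 to -0.32) against the control and -0.74 (SE 0.22) against miR-483-3p. It had the lowest p of the members in the first of these comparisons (limma adjusted p = 0.518) and did not pass in either (limma adjusted p = 0.789 against miR-483-3p).

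Probe set 205585_at of ETV6, whose source entry is a RefSeq transcript of the gene, read 45.7 and 40.3 with miR-483-5p, 52.3 with miR-483-3p, and 57.4 and 72 in scrambled control arrays. Here miR-483-5p again lay below both controls, with a difference of -0.36 (SE 0.16, adjusted p = 0.619) that was -0.57 with a pseudocount of 1 and -0.20 with 100, and miR-483-3p lay between the groups at -0.19. The brightest probe set, 225764_at, read 127.4 and 105.8 with miR-483-5p, 157.3 with miR-483-3p, and 283.2 and 116.7 in scrambled control arrays. Its difference of -0.55 (SE 0.34) rested on the first control array and was -0.0048 without it. Probe set 235056_at read 89.6 and 63.2 with miR-483-5p, 68.3 with miR-483-3p, and 105.1 and 68.2 in scrambled control arrays, with overlapping arrays.

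Probe set 239740_at of ETV6 ran the other way and separated the mimics. It read 34.8 and 56 with miR-483-5p, 7.4 with miR-483-3p, and 31.2 and 19.5 in scrambled control arrays. The miR-483-5p arrays were the highest and the miR-483-3p array the lowest. The difference between miR-483-5p and miR-483-3p was 0.96 (SE 0.25, 95% interval 0.37 to 1.55, limma adjusted p = 0.785). The miR-483-3p signal of 7.4 lies far under the filter and may not be above background, so the size of this difference depends on the pseudocount. The control mean of 25.35 also lies under the filter signal of 27.2. The probe set was thus tested only because its miR-483-5p arrays were high, and its separation is not independent of the filter. It was 0.43 with a pseudocount of 100, and with a pseudocount of 1 the probe set fell under the filter. Against the control it was 0.43 (SE 0.20) for miR-483-5p and -0.53 (SE 0.25) for miR-483-3p.

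ETS1, whose gene neighbours FLI1 with 0 protein-coding genes between them in the RefSeq table, encodes an activator best known in lymphocytes and endothelium. Probe set 224833_at read 210.3 and 169.6 with miR-483-5p, 160.6 with miR-483-3p, and 178 and 112.6 in scrambled control arrays. The groups overlapped, with a difference of 0.34 (SE 0.22, 95% interval -0.19 to 0.87) that was 0.07 without the second control array. Probe set 214447_at, with a RefSeq transcript of the gene as source entry, read 40.5 and 75, 59.5, and 79.9 and 61.8 for miR-483-5p, miR-483-3p and control, a difference of -0.22 (SE 0.22). Probe set 1555355_a_at read 21.6 and 49.2, 31.4, and 30.6 and 19 in the same order, a difference of 0.22 (SE 0.24). Thus 2 ETS1 probe sets had higher means with miR-483-5p and 1 a lower mean, all within overlapping arrays.

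ERG and ETV4, ETS factors that take the place of FLI1 in rarer fusions, were dim on every array. The 1 tested ERG probe set, 222079_at, read 32.4 and 32.9 with miR-483-5p, 25.2 with miR-483-3p, and 34.6 and 25.8 in scrambled control arrays, a difference of 0.06 (SE 0.16) with miR-483-5p. The others, 213541_s_at, 241926_s_at and 211626_x_at, ranged from 1.8 to 35.1. ETV4 1554576_a_at read 12.7 and 9.1 with miR-483-5p, 16.1 with miR-483-3p, and 20.3 and 11.2 in scrambled control arrays. ETV4 211603_s_at read 10.4 and 5 with miR-483-5p, 14.3 with miR-483-3p, and 4.6 and 4.7 in scrambled control arrays. The values carry no detection calls. Whether the ERG and ETV4 probe sets lay above background is not known, and no difference is given for those under the filter.

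The members were then set beside all probe sets. Limma called 0 of the 18 tested members with an adjusted p under 0.05 for miR-483-5p against the control, where it called 0% of the 32768 probe sets. At an unadjusted p under 0.05 there were 2 members, ETV6 239364_at and EWSR1 210011_s_at, against 2730 probe sets or 8.33%. Arrays did not overlap in 3 members with higher miR-483-5p signal, against 18.5% of all probe sets, and in 2 with lower signal, against 21.2%. These were EWSR1 209214_s_at and 210011_s_at and ETV6 239740_at above, and ETV6 239364_at and 205585_at below. The mean of ETV6 239740_at passed the filter only through its miR-483-5p arrays. The median difference of the tested members was -0.11, with 8 higher and 10 lower, and that of all probe sets -0.02. In absolute size their median difference was 0.24, against 0.16 for all probe sets. The members did not stand out this way in the other comparisons. The same medians were 0.165 and 0.159 for miR-483-3p against the control, and 0.128 and 0.166 for miR-483-5p against miR-483-3p.

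For miR-483-3p against the control limma called 0 members and 0% of all probe sets, and at an unadjusted p under 0.05 there were 0 members, against 1834 probe sets or 5.6%. The single array lay above both controls in 3 members, against 32.5% of probe sets, and below both in 7, against 35.6%. For miR-483-5p against miR-483-3p the adjusted calls were again 0 and 0%. Here 2 members, ETV6 239740_at and 239364_at, had an unadjusted p under 0.05, against 1872 or 5.71% of probe sets, and the miR-483-5p arrays lay above the other in 6 members (33% of probe sets) and below it in 4 (32.8%). The 3 comparisons share their arrays.

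The remaining ETS genes give the family around FLI1. The ETS list has 28 genes, of which 27 are named on the array and 20 passed the filter in their brightest probe set, members included. With miR-483-5p 9 were higher and 11 lower. Their median was -0.04, against -0.0085 over all 14591 genes, and none of these brightest probe sets passed the adjusted test or an unadjusted p under 0.05. Groups did not overlap in 3 higher and 1 lower, where 20.3% and 22.2% of all genes did so. On the single miR-483-3p array 9 were also higher and 11 lower, with a median of -0.02. These differences ran from -0.88 in ELF3, which read 26.8 on that array, to 0.58 in ETS2. ETS2 read 645.5 and 444.8 with miR-483-5p, 605.4 with miR-483-3p, and 392.6 and 393.9 in scrambled control arrays, a difference of 0.42 (SE 0.20) with miR-483-5p and 0.58 with miR-483-3p. Of the other tested ETS2 probe sets, 201329_s_at gave -0.06 and 241193_at 0.22 with miR-483-5p. ETV3, a repressor, read 736.3 and 586.8, 495.8, and 528.7 and 477.6 for miR-483-5p, miR-483-3p and control, and ELK4, a partner of SRF, read 581.5 and 554.3, 445.9, and 517.1 and 398.9. Their differences were 0.37 and 0.30 with miR-483-5p. The other tested ETV3 probe set, 1552423_at, gave -0.20, and the other tested ELK4 probe sets ran from -0.31 in 214831_at, whose miR-483-5p arrays read 48.5 and 156.7, to 0.12 in 238761_at. FEV and ETV1, rarer partners of EWSR1, overlapped between groups in their brightest probe sets, with differences of -0.12 (SE 0.31) and -0.11 (SE 0.16). Groups did not overlap in ETV1 221911_at, at -0.30, and in ETV1 217061_s_at, at 0.04. Outside the members, the dimmer ETV5 231083_at, at -0.70, and SPDEF 213442_x_at, at -0.41, had an unadjusted limma p under 0.05 with miR-483-5p. So did 8.33% of all probe sets, and neither passed after adjustment. The other tested ETV5 probe sets ran from -0.20 to -0.12 and those of SPDEF from -0.08 to 0.17.

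**Figure D5:**
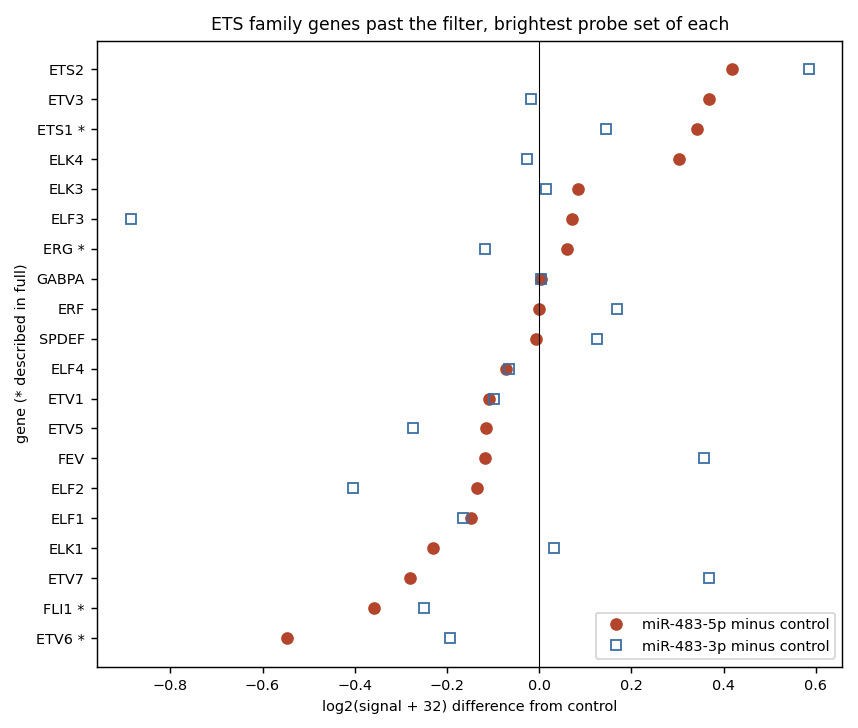
Difference from the scrambled control in log2(signal + 32) for the 20 ETS genes past the filter (vertical axis, ordered by miR-483-5p), with filled circles for miR-483-5p and open squares for miR-483-3p, from the brightest probe set of each gene. Asterisks mark ETS1, ERG, FLI1 and ETV6. Differences with miR-483-5p run from -0.55 for ETV6 to 0.42 for ETS2, and 4 of the 20 genes, ETS2, ETV3, ELK4 and ELK1, have groups that do not overlap. The largest difference drawn is -0.88, for ELF3 with miR-483-3p, from 1 array.

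Genes whose products act with the fusion, and genes it is known to control, give its surroundings in these arrays. Of 19 tested partners and regulators, such as BAF complex subunits and histone deacetylases, 13 were higher and 6 lower with miR-483-5p. Their median was 0.14, against -0.0085 over all genes, and limma called none (1 at an unadjusted p under 0.05, against 8.7% of all genes). With miR-483-3p 8 were higher and 11 lower (median -0.01). With miR-483-5p groups did not overlap in 8 of the higher ones, against 20.3% of all genes. TRIM8, a ubiquitin ligase for the fusion protein, read 349.6 ± 9.83 with miR-483-5p and 252.9 ± 34.8 in control arrays (SD, n = 2 each), a difference of 0.43 (SE 0.16, limma adjusted p = 0.584). The helicase DHX9 and the cohesin subunit STAG2 differed by 0.30 and 0.27. Of 16 tested genes reported as induced by the fusion, 5 were higher and 11 lower, with a median of -0.16, against -0.0085 over all genes. Limma called none (4 at an unadjusted p under 0.05, 1 of them higher, against 8.7% of all genes). Groups did not overlap in 9 of the lower ones, against 22.2% of all genes, and in 1 of the higher ones, against 20.3%. NPY1R, LIPI and CCK had the largest such differences, -0.55, -0.52 and -0.44. The higher one was CCND1, a cyclin singled out after its values were seen, at 5881 ± 232 with miR-483-5p and 4459 ± 152 in control arrays (SD, n = 2 each), a difference of 0.40. With miR-483-3p 5 of the induced genes were higher and 11 lower, with a median of -0.11. NKX2-2, STEAP1, LIPI, NPY1R and BCL11B are on this list and among the Ewing sarcoma markers, so these are not separate observations. Genes reported as repressed by the fusion were also mostly lower, in 5 of 6, with a median of -0.14. Limma called 0 of them (1 at an unadjusted p under 0.05, against 8.7% of all genes). Groups did not overlap in 2 of the lower ones, IGFBP3 at -0.58 and DKK1 at -0.21, against 22.2% of all genes, and in 0 of the higher. The repressed genes had a median of -0.26 with miR-483-3p. Between miR-483-5p and miR-483-3p the medians were -0.06 for the induced and 0.14 for the repressed genes.

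Nearest in pattern to the brightest FLI1 probe set, 210786_s_at, over the 5 arrays were HTR6, DPYSL5 and PANX1, with root mean square differences of 0.0309, 0.0349 and 0.0393 between centred log2 profiles. Nearest to EWSR1 209214_s_at were TNFRSF10D, TBC1D2B and NRF1, at 0.0148, 0.0149 and 0.0216. They were picked from 15467 and 22817 probe sets with at least 0.5 times the member's range.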

How the data were processed

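Affymetrix HG-U133 Plus 2 arrays had been hybridised with labelled cRNA, per the labels. The authors deposited intensity on a linear scale, 1 value per probe set. On each of the 5 arrays the 2% trimmed mean is 150, so values had been scaled beforehand. GCOS and Partek are named in the submitters' processing notes without versions. No label or header names the method that summarised probes into signals.

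The 62 control probe sets were left out. Names came from the platform annotation, updated through RefSeq (41037 of 41091 probe sets with 1 symbol matched). Probe sets whose mean log2(signal + 32) lay under the 40th percentile were not tested, which left 32768. Each was fitted on its own with limma 3.58.1 in R 4.3.3, with 1 mean per group over all 5 arrays, 2 residual and 4.66 prior degrees of freedom, two-sided empirical Bayes tests and Benjamini-Hochberg adjustment at 0.05. The single miR-483-3p array was assumed to vary like the others. An exact permutation test of 2 against 2 arrays cannot go below p = 0.333. The fit was run on simulated arrays with independent noise and added changes larger than those of the members against the control. That run checks the code and cannot show how the fit does on these arrays. Gene lists used the brightest probe set per gene. Named list genes were the 3 largest non-overlapping differences with miR-483-5p, plus FEV and ETV1. The nearest patterns came from root mean square differences. DKK1 and IGFBP3 were the only non-overlapping genes of their list. Members and lists were chosen with earlier results of these data known. Precision is limited by the number of arrays. Figures were drawn with matplotlib 3.10.9.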

Additional observations from a re-analysis of the deposited data

How the results depend on the processing

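The counts of called probe sets were 0 in all 3 comparisons, for all probe sets and for members, with median centring, quantile normalization, pseudocounts of 1 and 100, no filter or one at the 60th percentile, the brightest probe set or the mean per gene, an intensity trend, and each paired array left out (0 to 0). They were also 0 with a replicate block for first arrays against repeats. The labels do not tie the first arrays to each other, and deviations of same-numbered arrays correlated at 0.172 across probe sets, so the numbers are not taken as pairs. Of 54 member differences, 27 kept their sign under the alternatives run and 27 changed it under at least 1, in 40 of 657 values, and none passed the threshold. Against the control with miR-483-5p, EWSR1 209214_s_at and 210011_s_at, FLI1 210786_s_at, ETV6 225764_at, 239364_at, 205585_at and 239740_at, and ETS1 224833_at kept their sign under every alternative that gave a value. Of these, ETV6 225764_at reached -0.0048 and ETS1 224833_at 0.07. Leaving out an array cannot turn the sign where both miR-483-5p arrays lie on the same side of both controls. This holds for these EWSR1 probe sets and for ETV6 239364_at, 205585_at and 239740_at. ETV6 239364_at ran from -1.18 to -0.42, with adjusted p from 0.282 to 0.929. Median centring put the median of all probe sets at 0.02 with miR-483-5p, against -0.02 as deposited, and turned the sign of FLI1 204236_at with miR-483-3p. The cause of the sign changes was not tested.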
